A study of Mus musculus with 6 samples.

Results

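The 10 genes described here encode the major histocompatibility complex (MHC) class I molecule, proteins that cut, carry and load its peptides, and a transactivator of its genes. They were chosen by name, as *H2-K1*, *H2-D1*, *B2m*, *Tap1*, *Tap2*, *Tapbp*, *Psmb8*, *Psmb9*, *Psmb10* and *Nlrc5*, out of 54446 genes in the deposited files. All 10 were found, and all 10 were among the 14991 genes tested. RNA was measured in 6 libraries of CD8+ T cells purified with a negative selection kit from the spleens of C57BL/6 mice aged 8 weeks, 2 libraries in each of 3 groups. Unstimulated cells were taken fresh. Control cells were stimulated for 72 h with antibodies against CD3 and CD28 and kept without magnets. SMF-treated cells were stimulated in the same way for 72 h in a static magnetic field (SMF) of 0.3 T. Whether the 2 libraries of a group came from separate mice or cultures is not stated in the sources used here, so the p values may measure technical spread only.

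The values are FPKM, fragments per kilobase of transcript scaled to the mapped fragments of the library, which StringTie estimated for each annotated transcript and which were summed here to genes. The files hold no read counts, and depth was taken as bases covered. The shallowest library had 64.4 Mb (a control library) and the deepest 259 Mb (an SMF library), and the share of tested genes listed at 0 was between 9.17% and 19.7%. Folder dates in the file headers were the same for replicate 1 of the unstimulated and control cells. Replicate 2 of both shared a second date, and both SMF libraries another. Libraries with the same date are called a run here, which is inferred from these dates alone. No run held SMF-treated cells beside another group, and for every value that involves them run and treatment cannot be told apart. Genes annotated as antisense held between 19.5% and 24.7% of the summed FPKM in the unstimulated and control libraries, against 12.3% and 12.8% in the SMF libraries. Protein-coding genes held between 49.1% and 50.5% of it in the unstimulated and control libraries, against 69.2% and 68.7% in the SMF libraries. The cell label was checked against its markers: all 8 CD8 T cell markers, *Cd8a* among them, were above 0 in all 6 libraries. B cell markers reached a sum of 194 and 131 FPKM in unstimulated cells, and this was 28.6 and 8.46 in control cells and 4.85 and 2.71 after SMF treatment. Among the myeloid markers *Lyz2* was listed at 0 in all 4 stimulated libraries. *Csf1r* stood at 47.0 and 53.8 FPKM in control cells and 41.1 and 50.4 in SMF-treated cells.

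MHC class I molecules show peptides from inside a cell to CD8+ T cells. The proteasome cuts proteins into peptides, the TAP transporter carries these into the endoplasmic reticulum, and a loading complex built around tapasin places them on a heavy chain paired with beta-2 microglobulin. In cells exposed to interferon-gamma, which activated CD8+ T cells themselves secrete, the proteasome takes up alternative catalytic subunits and becomes the immunoproteasome, and the transactivator NLRC5 raises transcription of the class I genes.

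In the coordinates of the deposited files, which use the mouse genome GRCm38, 7 of the 10 genes lie on chromosome 17. These are *Tapbp* (ENSMUSG00000024308.14, chr17:33915899-33929288), *H2-K1* (ENSMUSG00000061232.15, chr17:33996017-34000333), *Psmb9* (ENSMUSG00000096727.2, chr17:34181988-34187764), *Tap1* (ENSMUSG00000037321.17, chr17:34187553-34197225), *Psmb8* (ENSMUSG00000024338.14, chr17:34197721-34201454), *Tap2* (ENSMUSG00000024339.12, chr17:34203527-34216321) and *H2-D1* (ENSMUSG00000073411.11, chr17:35262730-35267499). *Psmb9*, *Tap1*, *Psmb8* and *Tap2* lie side by side within 34.3 kb. *Psmb10* (ENSMUSG00000031897.9, chr8:105935735-105938444) and *Nlrc5* (ENSMUSG00000074151.13, chr8:94434356-94527272) lie on chromosome 8, and *B2m* (ENSMUSG00000060802.8, chr2:122147686-122153083) on chromosome 2. *Psmb9* and *H2-K1* are transcribed from the minus strand of chromosome 17 and *Psmb10* from that of chromosome 8, the other 7 from the plus strand.

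The promoters of 5 members are shown because class I genes are known for a shared upstream module of short elements. RefSeq entries with the build GRCm38.p6 were matched for 8 of the 10 genes, not for *Tap2* and *Nlrc5*. Each window holds 300 bases, the last 50 of them from the start site on, and is written 5′ to 3′ on the strand of the gene. Capitals mark the matches, on either strand, to the NF-kappaB core GGGATTCC, the X2 core TGACG, the Y box CCAAT, the interferon-stimulated response element core GAAANNGAA and the gamma-activated site TTCNNNGAA.
H2-K1 (chr17:34000284-34000583, minus strand): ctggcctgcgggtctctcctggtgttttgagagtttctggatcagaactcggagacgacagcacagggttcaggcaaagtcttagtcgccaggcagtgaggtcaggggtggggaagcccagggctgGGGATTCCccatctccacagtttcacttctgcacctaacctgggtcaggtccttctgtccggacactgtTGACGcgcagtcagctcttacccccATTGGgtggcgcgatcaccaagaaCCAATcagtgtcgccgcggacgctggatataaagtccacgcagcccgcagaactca
H2-D1 (chr17:35262844-35263143, plus strand): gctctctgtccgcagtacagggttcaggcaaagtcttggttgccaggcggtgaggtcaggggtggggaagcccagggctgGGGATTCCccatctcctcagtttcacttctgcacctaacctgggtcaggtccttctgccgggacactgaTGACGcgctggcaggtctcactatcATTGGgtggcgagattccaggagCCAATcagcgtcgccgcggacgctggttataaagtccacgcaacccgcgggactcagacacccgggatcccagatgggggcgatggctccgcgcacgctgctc
B2m (chr2:122147437-122147736, plus strand): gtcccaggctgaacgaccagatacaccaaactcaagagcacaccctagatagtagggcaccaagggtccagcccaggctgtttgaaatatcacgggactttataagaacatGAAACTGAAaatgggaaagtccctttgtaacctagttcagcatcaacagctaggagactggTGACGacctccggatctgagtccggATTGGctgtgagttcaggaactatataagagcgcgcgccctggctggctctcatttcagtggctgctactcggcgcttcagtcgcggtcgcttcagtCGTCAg
Tap1 (chr17:34187306-34187605, plus strand): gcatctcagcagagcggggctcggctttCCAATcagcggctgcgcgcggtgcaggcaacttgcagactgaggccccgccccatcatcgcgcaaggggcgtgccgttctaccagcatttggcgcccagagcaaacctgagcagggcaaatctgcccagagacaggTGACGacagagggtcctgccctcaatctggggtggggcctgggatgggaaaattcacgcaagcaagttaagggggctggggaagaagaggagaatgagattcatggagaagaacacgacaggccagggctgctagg
Psmb8 (chr17:34197945-34198244, plus strand): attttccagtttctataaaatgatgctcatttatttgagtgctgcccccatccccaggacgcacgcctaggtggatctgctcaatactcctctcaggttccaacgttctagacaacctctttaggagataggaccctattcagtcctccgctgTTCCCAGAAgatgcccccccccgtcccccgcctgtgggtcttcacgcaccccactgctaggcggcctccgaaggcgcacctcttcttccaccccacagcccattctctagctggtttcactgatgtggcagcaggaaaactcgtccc

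Both heavy chain promoters held the NF-kappaB core, which occurred in 1.07% of 27018 promoter windows, followed by the X2 core and by a Y box in each orientation. The X2 core occurred in 21.0% of all windows and the Y box in 37.9%. The *B2m* window held the X2 core at 2 places, the Y box and the interferon-stimulated response element core, which occurred in 8.58% of all windows. The *Tap1* window held the X2 core and the Y box. The window of *Psmb9*, whose RefSeq start lies 226 bases away and points the other way, covers nearly the same bases. It holds the same matches in reverse. In the coordinates of the deposited files *Tap1* starts at base 34187553 and *Psmb9* at 34187764 on the minus strand, so these genes overlap. The *Psmb8* window held the gamma-activated site, found in 8.47% of all windows. The windows use RefSeq starts. In the deposited files the transcript with the most FPKM starts upstream of the whole window for *H2-D1* (base 35262730), *Psmb8* (34197790) and *Psmb9* (34187764, minus strand). The matches of these genes therefore lie downstream of that start, inside the gene. The window of *Tapbp* held the Y box only, and the window of *Psmb10* held none of these letter strings. No match overlapped another, and a match is a description of the letters and not of a bound site. Only exact matches to these strings were marked. A window without a match, as in the heavy chain windows for the interferon-stimulated response element core, may still hold an element of another spelling.

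The 3 genes of the class I molecule itself stood far above the others. Their levels lay between 201 and 684 FPKM in single libraries, and those of the other 7 members between 6.41 and 151 FPKM, so the ranges did not overlap. By the mean over the 6 libraries the order was *H2-K1* at 432 FPKM, *B2m* at 405, *H2-D1* at 272, *Psmb8* at 87.9, *Psmb9* at 68.2, *Tapbp* at 67.0, *Nlrc5* at 53.9, *Tap1* at 44.6, *Psmb10* at 19.5 and *Tap2* at 18.9. Neighbours in this order overlapped across libraries, apart from the step from *H2-D1* to *Psmb8*.

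**Figure D1:**
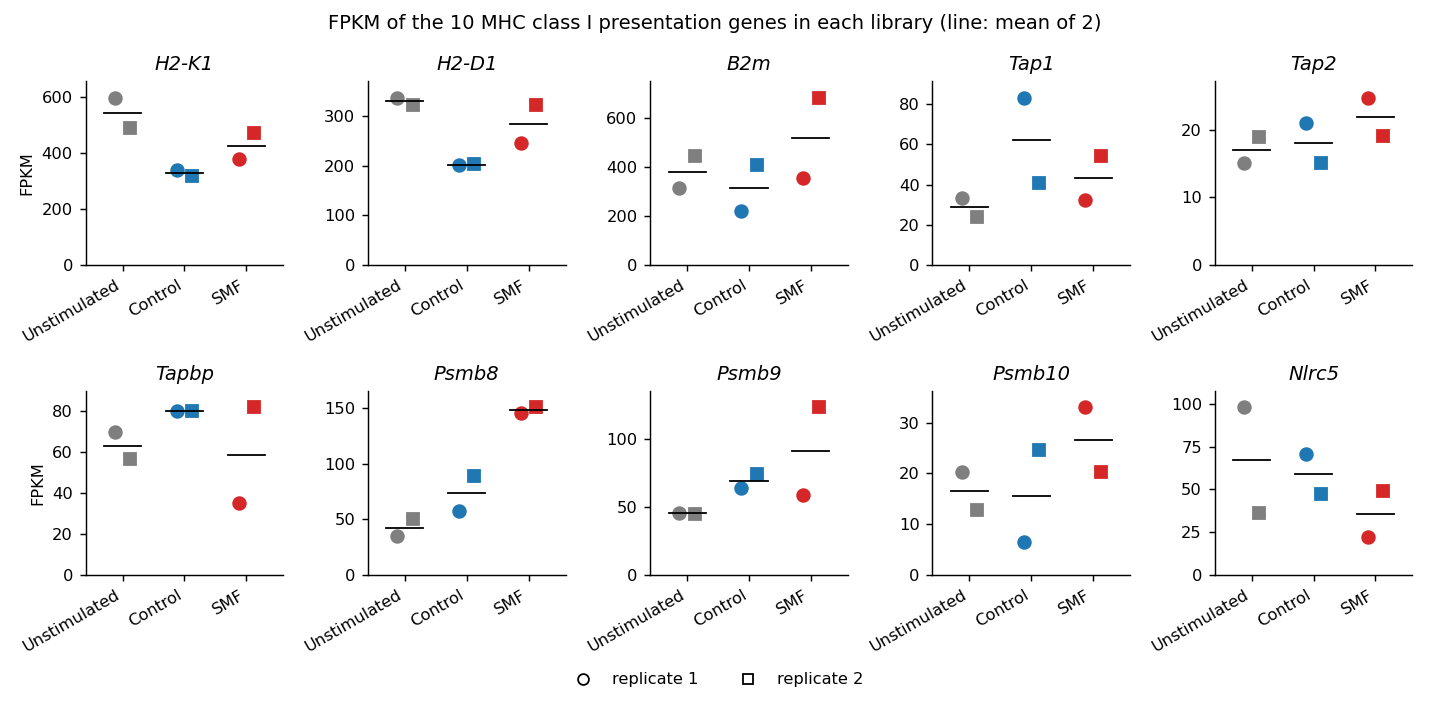
FPKM of each gene in each library, with 1 panel per gene, the 3 groups on the x axis, circles for replicate 1, squares for replicate 2 and a line at the mean of the 2. *H2-K1* and *H2-D1* were lower in both control than in both unstimulated libraries, and *Psmb8* stood at 145 and 151 FPKM in the SMF libraries against at most 88.9 elsewhere.

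Across all 10 genes, few differences passed the test. A gene was called when its fold change in log2(FPKM + 1) reached 2-fold and limma gave an unadjusted p of at most 0.05, the thresholds of the study's methods. Between control and unstimulated cells 0 of the 10 were called, where 12.3% of all genes tested were called higher and 12.6% lower. Between SMF-treated and control cells 1 of 10 was higher and 0 lower, against 12.5% and 5.72% of all genes. Between SMF-treated and unstimulated cells 1 of 10 was higher and 0 lower, against 22.4% and 14.8% of all genes. The called gene was *Psmb8* in both of the latter comparisons. Comparisons that share a group share its libraries.

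The same picture held at a Benjamini-Hochberg adjusted p under 0.05. For control against unstimulated cells 0 members passed, where 4.52% of all genes passed as higher and 3.96% as lower, and 2 members (*H2-K1* and *H2-D1*) had an unadjusted p under 0.05 in limma's test. For SMF-treated against control cells 0 members passed, where 0.02% and 0.00667% of all genes did, and 1 member (*Psmb8*) had an unadjusted p under 0.05. For SMF-treated against unstimulated cells 1 member, *Psmb8*, passed as higher and 0 as lower, where 14.2% and 9.4% of all genes did.

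The groups did not overlap for 4 members above and 2 below in control against unstimulated cells, where 24.8% and 26.6% of all genes did so. For SMF-treated against control cells it was 3 above and 0 below, with 37.4% and 17.4% of all genes. For SMF-treated against unstimulated cells it was 3 above and 1 below, with 39.7% and 26% of all genes. The median log2 fold change of the 10 genes was 0.01, 0.33 and 0.37 in these 3 comparisons, and that of all genes tested was -0.05, 0.32 and 0.27. With all libraries shifted to one median, the genes called between SMF-treated and control cells went from 1868 higher and 857 lower to 877 higher and 1441 lower, and with one sum over protein-coding genes to 931 and 1307. The number of members with a positive value in that comparison went from 7 to 5 under both scalings, as *Tap2* and *Psmb9* turned to slightly below 0.

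**Figure D2:**
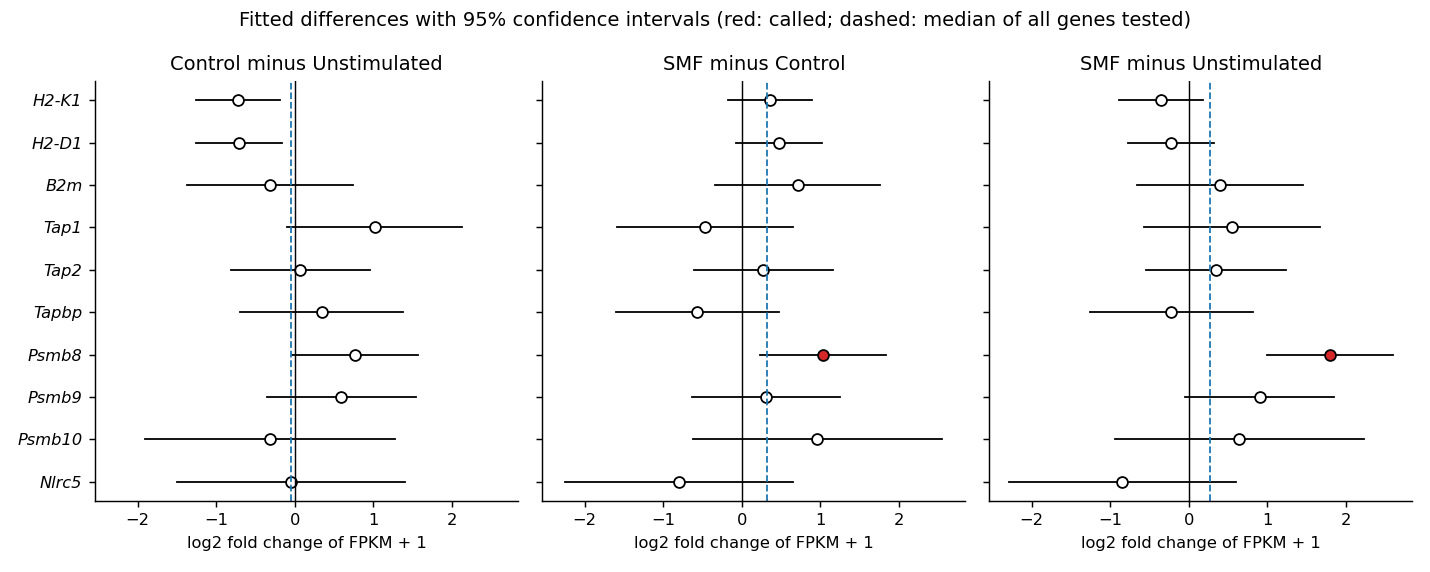
Fitted log2 fold change of FPKM + 1 for each gene, with its 95% confidence interval, in the 3 comparisons; red points were called, and the dashed line marks the median of all genes tested. *Psmb8* is the 1 red point in each comparison with SMF-treated cells, and the intervals of *H2-K1* and *H2-D1* lie below 0 in control against unstimulated cells.

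*H2-K1* and *H2-D1* encode the classical heavy chains K and D, which hold the peptide. *H2-K1* stood at 596 and 489.9 FPKM in unstimulated cells, 338 and 318 in control cells, and 378 and 471 in SMF-treated cells. *H2-D1* stood at 337 and 322 FPKM in unstimulated cells, 201 and 203 in control cells, and 245 and 323 in SMF-treated cells. For both genes the control libraries were the lowest of the 6, and neither overlapped the unstimulated or the SMF libraries. The log2 fold change in control against unstimulated cells was -0.72 for *H2-K1* (SE 0.22, limma adjusted p = 0.1004), and -0.71 for *H2-D1* (SE 0.23, limma adjusted p = 0.1098). Both unadjusted p values were under 0.05, but the changes were smaller than 2-fold and neither gene was called. The difference was of the same sign within each run, -0.82 and -0.62 for *H2-K1* and -0.75 and -0.67 for *H2-D1*. FPKM is scaled to the mapped fragments of a library, so these values do not give the amount of RNA per cell. In bulk RNA, a change in the mix of cells and a change within cells also cannot be told apart.

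In SMF-treated against control cells the log2 fold change was 0.36 for *H2-K1* (95% interval -0.18 to 0.90, limma adjusted p = 0.390) and 0.48 for *H2-D1* (95% interval -0.07 to 1.03, limma adjusted p = 0.284). Neither passed the test. Against unstimulated cells the values in SMF-treated cells were -0.36 for *H2-K1* (limma adjusted p = 0.283) and -0.23 for *H2-D1* (limma adjusted p = 0.490). The ratio of *H2-K1* to *H2-D1* within a library, on the log2 scale, was 0.82 and 0.60 in unstimulated, 0.76 and 0.65 in control, and 0.63 and 0.54 in SMF-treated cells. The log2 ratio of the 2 heavy chains thus stayed between 0.54 and 0.82 over the 6 libraries, with no test. On protein-coding transcripts only, it lay between 0.28 and 0.69, and both of these values were from control libraries.

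The 2 heavy chains resemble each other and the nonclassical class I genes, which limits how well their reads can be assigned. In the GENCODE M21 transcripts, the coding sequences of *H2-K1* (1107 bases) and *H2-D1* (1086 bases) share an identical run of 91 bases, at bases 738 to 828 of the *H2-K1* coding sequence. It is printed because a read inside it fits both genes equally.
H2-K1 and H2-D1, shared run: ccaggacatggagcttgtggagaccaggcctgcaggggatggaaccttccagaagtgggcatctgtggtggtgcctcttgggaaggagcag
Of all 50-base windows in the coding sequence, 12.9% of those in *H2-K1* and 23.5% of those in *H2-D1* occur in at least 1 of 12 other class I genes compared. For 100-base windows the shares were 0 and 9.02%. The levels of both genes are therefore uncertain to the extent that reads of these stretches were split between copies.

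*B2m* encodes beta-2 microglobulin, the light chain that every class I heavy chain needs to reach the surface. It stood at 315 and 446 FPKM in unstimulated cells, 221 and 409 in control cells, and 355 and 684 in SMF-treated cells. The groups overlapped in every comparison, and replicate 2 was the higher library in each group. On the log2 scale its fold change was -0.32 in control against unstimulated cells (limma adjusted p = 0.688), 0.71 in SMF-treated against control cells (95% interval -0.35 to 1.77, limma adjusted p = 0.390) and 0.40 in SMF-treated against unstimulated cells (limma adjusted p = 0.534). Within the runs, the log2 difference between control and unstimulated cells was -0.51 and -0.12. *B2m* has 1 annotated transcript, so its level does not depend on how reads were divided among isoforms.

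The log2 ratio of *B2m* to *H2-K1* was -0.92 and -0.14 in unstimulated, -0.61 and 0.36 in control, and -0.09 and 0.54 in SMF-treated cells. Replicate 2 was higher than replicate 1 in each group, and the groups overlapped. With 2 libraries a group, these ratios are given with no test.

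*Tap1* and *Tap2* encode the subunits of the TAP peptide transporter. *Tap1* stood at 33.3 and 23.98 FPKM in unstimulated cells, 83.1 and 40.8 in control cells, and 32.2 and 54.4 in SMF-treated cells. Both control libraries were above both unstimulated libraries, and the SMF libraries overlapped with both other groups. The log2 fold change in control against unstimulated cells was 1.02 (SE 0.46, limma adjusted p = 0.226), which did not pass the test. With the run as a term in the fit *Tap1* was called higher at the same value (limma adjusted p = 0.139). The differences within the runs were 1.29 and 0.74. Without control replicate 1 the log2 fold change fell to 0.51, and without control replicate 2 it was 1.52 and called. In each fit that leaves out a library, the lone sample of a group is taken to vary like the other groups.

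In SMF-treated against control cells the log2 fold change of *Tap1* was -0.47 (95% interval -1.59 to 0.65, limma adjusted p = 0.582). *Tap2* stood at 15.0 and 18.9 FPKM in unstimulated cells, 21.0 and 15.0 in control cells, and 24.7 and 19.03 in SMF-treated cells. Its groups were close, with a log2 fold change of 0.07 in control against unstimulated cells (95% interval -0.81 to 0.96) and 0.27 in SMF-treated against control cells (95% interval -0.61 to 1.16). The log2 ratio of *Tap1* to *Tap2* was 1.15 and 0.35 in unstimulated, 1.98 and 1.44 in control, and 0.38 and 1.51 in SMF-treated cells. *Tap1* was thus the higher of the 2 subunits in every library, by amounts that overlapped between SMF-treated and unstimulated cells.

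*Tapbp* encodes tapasin, which bridges the transporter and the empty heavy chain. It stood at 69.6 and 56.4 FPKM in unstimulated cells, 79.9 and 79.7 in control cells, and 34.9 and 81.7 in SMF-treated cells. The SMF libraries were the lowest and the highest of the 6. *Tapbp* had a log2 fold change of 0.34 in control against unstimulated cells (limma adjusted p = 0.651) and -0.57 in SMF-treated against control cells (95% interval -1.61 to 0.47, limma adjusted p = 0.471). Without SMF replicate 2 the latter became -1.17, at which *Tapbp* was called lower, and without SMF replicate 1 it was 0.03.

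*Psmb8*, *Psmb9* and *Psmb10* encode the catalytic subunits that replace *Psmb5*, *Psmb6* and *Psmb7* in the immunoproteasome. *Psmb8* stood at 34.5 and 50.4 FPKM in unstimulated cells, 57.7 and 88.9 in control cells, and 145 and 151 in SMF-treated cells. The 3 groups did not overlap, and the levels ran from unstimulated through control to SMF-treated cells. The log2 fold change was 1.80 in SMF-treated against unstimulated cells (SE 0.33, limma adjusted p = 0.0156). It was 1.04 in SMF-treated against control cells (SE 0.33, 95% interval 0.23 to 1.84, limma adjusted p = 0.182), and 0.77 in control against unstimulated cells (SE 0.33, limma adjusted p = 0.205), which was not called. The last value ranged from 0.46 to 1.07 with a library left out, and was called higher without control replicate 1 (1.07) and without unstimulated replicate 2 (1.03).

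The call of *Psmb8* in SMF-treated against control cells rested on the scaling and on single libraries. The median of all genes tested was 0.32 in this comparison. With every library shifted to one median the log2 fold change of *Psmb8* was 0.69 (limma adjusted p = 0.310), and with one sum over protein-coding genes 0.71 (limma adjusted p = 0.315), and it was not called in either. Leaving out control replicate 1 gave 0.73 and leaving out SMF replicate 1 or SMF replicate 2 gave 1.06 and 1.01, with no call in these 3 fits. The direction held in each of these fits. Against unstimulated cells *Psmb8* was called under every alternative run, with log2 fold changes from 1.32 to 2.33, though its adjusted p rose above 0.05, to at most 0.119, when either unstimulated or either SMF library was left out.

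*Psmb9* stood at 45.3 and 44.8 FPKM in unstimulated cells, 63.5 and 73.9 in control cells, and 58.8 and 123 in SMF-treated cells. All 4 stimulated libraries were above both unstimulated libraries, and the control libraries lay within the range of the SMF libraries. For *Psmb9* the log2 fold change was 0.59 in control against unstimulated cells (limma adjusted p = 0.385), 0.90 in SMF-treated against unstimulated cells (95% interval -0.04 to 1.85, limma adjusted p = 0.143) and 0.31 in SMF-treated against control cells (95% interval -0.64 to 1.26, limma adjusted p = 0.680). Without SMF replicate 1 the value against unstimulated cells was 1.43 and called.

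*Psmb10* stood at 20.3 and 12.8 FPKM in unstimulated cells, 6.41 and 24.6 in control cells, and 33.0 and 20.2 in SMF-treated cells. The groups overlapped throughout, and the control libraries were the most apart. Its log2 fold change in SMF-treated against control cells, 0.96, had a 95% interval from -0.63 to 2.55 (limma adjusted p = 0.431). Without control replicate 2 it was 1.86 and called, and without control replicate 1 it was 0.07.

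The constitutive subunits were also measured, and each of the 3 was called higher in at least 1 comparison. *Psmb5*, the counterpart of *Psmb8*, went from 6.22 and 9.37 FPKM in unstimulated cells to 17.2 and 19.2 in control cells and 56.6 and 72.7 in SMF-treated cells. It was called higher in control against unstimulated cells (log2 fold change 1.15, limma adjusted p = 0.103) and in SMF-treated against control cells (1.76, limma adjusted p = 0.136). *Psmb6*, the counterpart of *Psmb9*, was called higher in SMF-treated against control cells (log2 fold change 2.04, limma adjusted p = 0.175). *Psmb7*, the counterpart of *Psmb10*, was called higher in control against unstimulated cells (log2 fold change 2.14, limma adjusted p = 0.0223). Of the 3 constitutive subunits, 2 were called higher in each of these comparisons and 3 in SMF-treated against unstimulated cells, and these counts were the same with libraries shifted to one median or to one sum over protein-coding genes. Of all genes tested, 12.3% were called higher in control against unstimulated cells, 12.5% in SMF-treated against control cells and 22.4% in SMF-treated against unstimulated cells.

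Within single libraries the ratio of *Psmb8* to *Psmb5*, on the log2 scale, was 2.47 and 2.43 in unstimulated, 1.75 and 2.21 in control, and 1.36 and 1.05 in SMF-treated cells. The 3 groups did not overlap, and the order was the reverse of that of the *Psmb8* level. On protein-coding transcripts only, the ratio was 1.52 and 2.09 in unstimulated, 1.64 and 2.04 in control, and 1.36 and 0.86 in SMF-treated cells, so the difference between unstimulated and control cells was no longer seen while the SMF libraries stayed lowest. The ratio of *Psmb9* to *Psmb6* was 0.62 and 0.88 in unstimulated, 2.16 and 0.45 in control, and -0.66 and -0.29 in SMF-treated cells. The SMF libraries were again the lowest, and the only ones in which the constitutive subunit exceeded its counterpart. On protein-coding transcripts only, the *Psmb9* ratio was 2.85 and 1.18 in unstimulated and 3.71 and 0.45 in control cells. It was -0.81 and -0.25 in SMF-treated cells, which stayed the lowest. The ratio of *Psmb10* to *Psmb7* was -0.57 and -1.51 in unstimulated, -4.10 and -3.06 in control, and -2.71 and -3.51 in SMF-treated cells, with all 4 stimulated libraries below both unstimulated ones. On protein-coding transcripts only, the *Psmb10* ratio could not be formed in replicate 1 of unstimulated and control cells, where coding *Psmb10* was 0. It was -1.73 in unstimulated and -4.97 in control replicate 2, and -5.22 and -3.73 in SMF-treated cells. A ratio within a library does not depend on the scaling between libraries, and shows unequal change only. The subunit pairs share no identical run of 30 bases in their coding sequences, the longest being 18 bases between *Psmb8* and *Psmb5*.

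**Figure D3:**
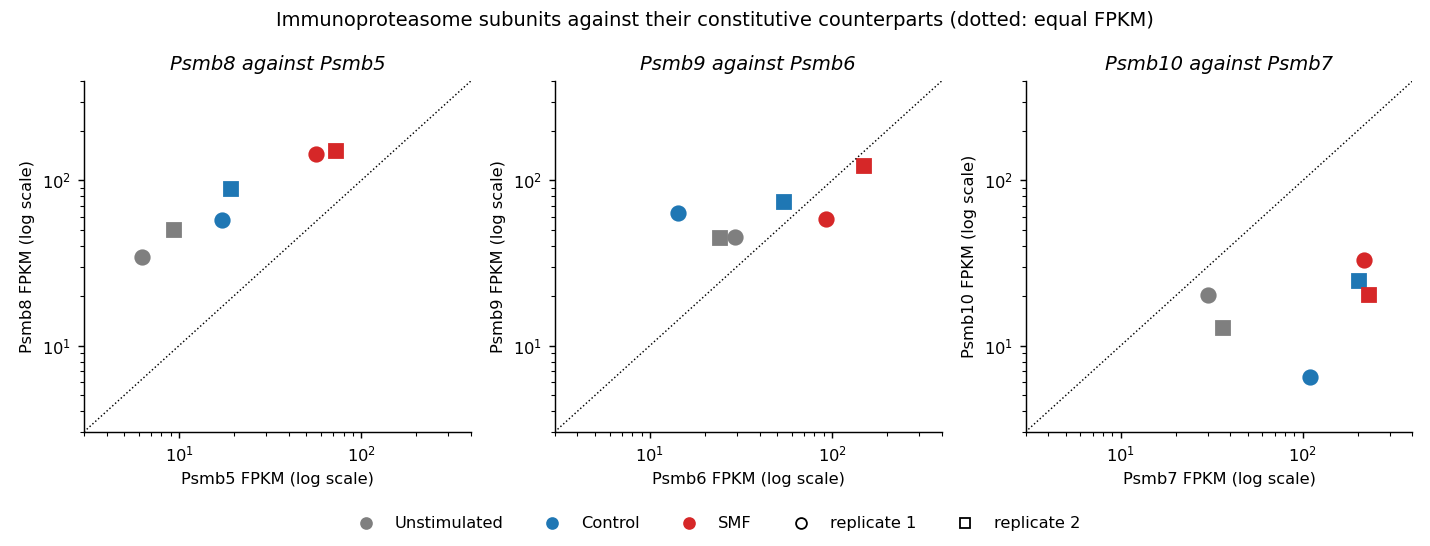
FPKM of each immunoproteasome subunit on the y axis against that of its constitutive counterpart on the x axis, both on log scales, in the 6 libraries (grey unstimulated, blue control, red SMF; circles replicate 1, squares replicate 2), with a dotted line at equal FPKM. *Psmb8* lies above the line in all libraries and moves toward it from unstimulated to SMF-treated cells, and *Psmb10* lies below the line in all libraries.

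*Nlrc5* encodes the transactivator of class I genes, which acts at the X and Y elements of their promoters. It stood at 98.1 and 36.3 FPKM in unstimulated cells, 71.0 and 47.1 in control cells, and 21.8 and 49.1 in SMF-treated cells. The groups overlapped, and the unstimulated libraries were the most apart. Its log2 fold change was -0.05 in control against unstimulated cells (limma adjusted p = 0.978) and -0.80 in SMF-treated against control cells (95% interval -2.25 to 0.65, limma adjusted p = 0.469).

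The sign of that last value depended on which transcripts were summed. Much of the *Nlrc5* FPKM fell on short transcripts with no coding sequence, and a 346-base processed transcript alone held 49.1 and 8.69 FPKM in unstimulated, 33.2 and 21.4 in control, and 6.35 and 5.77 in SMF-treated cells. The 7578-base coding transcript held 6.32 and 11.96 FPKM in unstimulated, 5.73 and 8.12 in control, and 11.2 and 16.4 in SMF-treated cells. Over all protein-coding transcripts of *Nlrc5* the log2 fold change in SMF-treated against control cells was 0.79 (limma adjusted p = 0.426), against -0.80 over all transcripts. The median of all genes tested also differed between these settings, at 0.62 on protein-coding transcripts and 0.32 over all transcripts. For *Nlrc5* the 2 values are thus not on one footing. Neither passed the test.

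Protein-coding transcripts held a different share of the FPKM in the other members. They held at least 95.7% for *H2-D1* and 70.7% to 96.2% for *H2-K1*. For *Psmb8* the share was 51.7% and 79.2% in unstimulated, 92.8% and 88.6% in control, and 99.6% and 88.0% in SMF-treated cells. On protein-coding transcripts *Psmb8* was called higher in all 3 comparisons, with log2 fold changes of 1.25, 1.08 and 2.33 (limma adjusted p = 0.137, 0.210 and 0.0161). In this setting 1351, 1694 and 2921 of 9559 genes tested were called higher, in the same order. The median log2 fold change of all these genes was 0.06, 0.62 and 0.72. With these transcripts also set to one sum over protein-coding genes, 0 members were called between SMF-treated and control cells. For *Tapbp* the share was 48.3% and 50.7% in control and 80.6% and 73.6% in SMF-treated cells, and on protein-coding transcripts its log2 fold change between these groups was 0.06 rather than -0.57. The 1 coding transcript of *Psmb10* (1311 bases) was listed at 0 in unstimulated replicate 1 and control replicate 1, and held 9.82 FPKM in unstimulated replicate 2, 6.45 in control replicate 2, and 5.71 and 17.1 in SMF-treated cells.

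**Figure D4:**
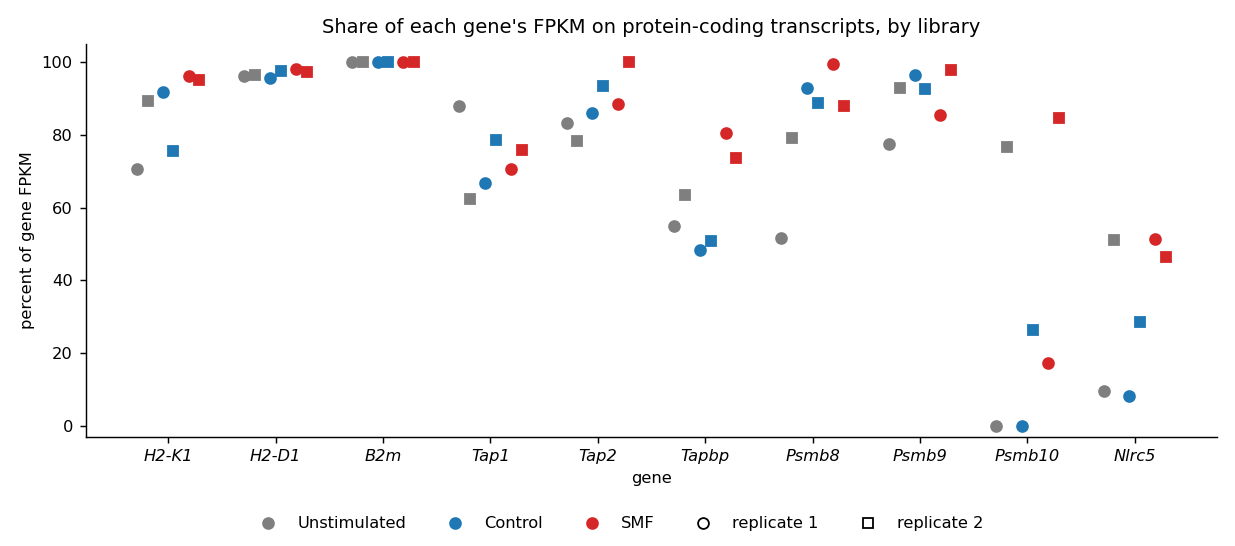
Percent of each gene's FPKM that fell on its protein-coding transcripts (y axis) for the 10 genes (x axis), by library, with colours and symbols for group and replicate. *B2m* is at 100% and *H2-D1* above 95% throughout, whereas *Psmb10* spans 0 to 84.7% and *Nlrc5* 8.06% to 51.3%.

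Several members face another gene on the opposite strand, and *Gm20496*, *Gm15821* and *Gm19412* exceeded the members they face in every library. *Gm20496*, annotated as antisense, shares 498 exon bases with *Psmb8* and 165 with *Tap2*. It stood at 675 and 697 FPKM in unstimulated, 631 and 509.8 in control, and 219.5 and 407 in SMF-treated cells, so both SMF libraries were the lowest while *Psmb8* was at its highest. Its log2 fold change in SMF-treated against control cells was -0.92 (limma adjusted p = 0.1997), which was not called, and against unstimulated cells -1.20 (limma adjusted p = 0.0436), which was called lower. *Gm15821* shares 533 exon bases with *Tap2* and stood at 423 and 323 FPKM in unstimulated, 454.5 and 295 in control, and 157 and 208 in SMF-treated cells. It was called lower in SMF-treated against control cells, at -1.01 on the log2 scale (limma adjusted p = 0.173). *Gm19412* shares 904 exon bases with *Tapbp* and stood at 209 and 162 FPKM in unstimulated, 262 and 240.6 in control, and 109 and 185 in SMF-treated cells. *Tap1* and *Psmb9* face each other over 212 exon bases, and *Nlrc5* faces *9330175E14Rik* over 78.

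The library kit named in the labels keeps the strand of the RNA, and the file headers show a strand setting in the StringTie runs; whether that setting matched the libraries was not tested. Of the facing genes, *Gm15821* was the 1 called between SMF-treated and control cells. The part of the facing genes, and of the lower share of antisense genes in the SMF libraries, in the results for *Psmb8*, *Tap2* and *Tapbp* was not tested.

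**Figure D5:**
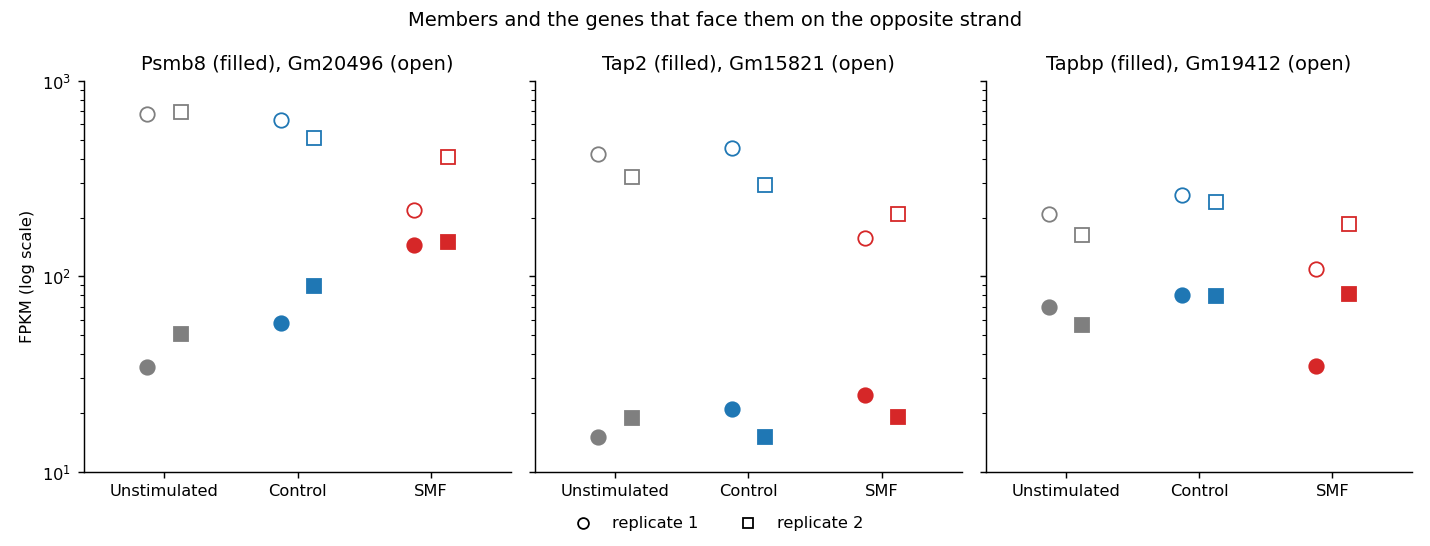
FPKM on a log scale of *Psmb8*, *Tap2* and *Tapbp* (filled) and of the gene that faces each on the opposite strand (open), by group, with circles for replicate 1 and squares for replicate 2. *Gm20496* exceeds *Psmb8* in all 6 libraries, by the least in SMF replicate 1 (219.5 against 145 FPKM).

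Replicates differed for the members in a way that touches each result above. The median absolute log2 difference between the 2 libraries of a group was 0.38 over the members and 0.61 over all genes in unstimulated cells, 0.52 and 0.61 in control cells, and 0.71 and 0.39 in SMF-treated cells. The SMF libraries were thus the pair closest to each other over all genes and the pair farthest apart over the members. SMF replicate 2 was higher than SMF replicate 1 for 8 of the 10 members, and the summed FPKM of the members was 1329 and 1976 in these libraries, against 1143 and 1300.2 in control cells and 1564 and 1501 in unstimulated cells. Within the runs shared by unstimulated and control cells, 4 members were higher in control cells in both runs and 3 were lower in both, where 30.9% and 32.5% of all genes were.

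Other spleen cells express class I genes too, and the negative selection is meant to remove them. In control against unstimulated cells 7 of 7 B cell markers tested, 5 of 7 myeloid, 2 of 3 NK cell, 1 of 3 dendritic and 0 of 3 CD4 T cell markers were called lower, beside 12.6% of all genes. The 10 class II genes, which mark cells that present antigen to CD4+ T cells, summed to 486 and 389 FPKM in unstimulated, 54.8 and 61.7 in control, and 15.4 and 26.9 in SMF-treated cells. Of these 10, 8 were called lower in control against unstimulated cells (the invariant chain gene *Cd74* at a log2 fold change of -2.89, limma adjusted p = 0.0208) and 4 were called lower in SMF-treated against control cells (*H2-Aa*, *H2-Ab1*, *Cd74* and *H2-Ob*). The shares of all genes called lower were 12.6% and 5.72%. Dendritic cell markers summed to 15.9 and 25.5 FPKM in unstimulated cells, 2.56 and 3.998 in control cells, and 1.16 and 0.448 in SMF-treated cells. Of the 10 myeloid markers 8 were found by name, and their sum was 145 and 168 FPKM in unstimulated cells and 47.0 to 53.8 in the stimulated libraries, where it was mostly *Csf1r*. In SMF-treated against control cells 1 of the 7 myeloid markers tested was called higher and 0 lower, beside 12.5% and 5.72% of all genes. *Cd68* was listed at 0 in both control libraries and at 6.41 and 0.892 FPKM in SMF-treated cells. The NK cell markers summed to 469.9 and 303 FPKM in unstimulated cells and 60.5 to 92.5 in the stimulated libraries, mostly *Klrk1*, which CD8+ T cells also express, while *Ncr1* and *Klrb1c* were listed at 0 in all 4 stimulated libraries. The part of these cells in the lower *H2-K1* and *H2-D1* values of control cells was not tested. The CD8 T cell markers summed to 898 and 1108 FPKM in unstimulated, 582 and 824 in control, and 1281 and 1221 in SMF-treated cells, with 2 of 8 called lower in control than in unstimulated cells while 3 of 8 were called higher in SMF-treated against control cells. The matching shares of all genes were 12.6% and 12.5%. The 3 CD4 T cell markers summed to 12.1 to 25.02 FPKM and the 2 erythroid markers found, of 6 listed, to 1.51 to 19.1 FPKM over the 6 libraries. The part of these differences in the results for *Psmb8*, *H2-K1* and *H2-D1* was not tested.

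Of the 3 genes of proteasome activators, 1 was called higher in control against unstimulated cells, 1 in SMF-treated against control cells and 2 in SMF-treated against unstimulated cells. The shares of all genes called higher in these 3 comparisons, for the activators and for the loading genes below, were 12.3%, 12.5% and 22.4%. *Psme3*, which encodes a nuclear proteasome activator, was called higher in control against unstimulated cells (log2 fold change 2.15, limma adjusted p = 0.0194) and in SMF-treated against control cells (1.02, limma adjusted p = 0.184). *Psme1* and *Psme2*, which encode the interferon-inducible activator PA28, were not called in either. Of 5 genes of loading and trimming, *Canx* (calnexin) was called higher in control against unstimulated cells, at 1.29 on the log2 scale (limma adjusted p = 0.161). *Pdia3*, the disulphide isomerase of the loading complex, was called higher in SMF-treated against control cells, at 1.32 (limma adjusted p = 0.136). *Calr* (calreticulin), *Canx* and *Pdia3* were called higher in SMF-treated against unstimulated cells. No loading gene was called higher and 1 was called lower in control against unstimulated cells with one sum over protein-coding genes. With libraries shifted to one median, 0 of the 5 loading genes and 0 of the 3 activators were called between SMF-treated and control cells.

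Of 14 nonclassical class I genes listed, 13 were found by name and 10 were tested. In control against unstimulated cells 1 was called higher and 3 lower, and in SMF-treated against control cells 1 higher and 2 lower, beside 12.3% and 12.6%, and 12.5% and 5.72%, of all genes. In control against unstimulated cells *H2-Q4*, *Cd1d1* and *Fcgrt* were called lower and *H2-T24* higher. *H2-Q4* is a Qa region gene, *Cd1d1* encodes the lipid-presenting CD1d and *Fcgrt* the Fc receptor of the newborn. *H2-T24* went from 28.9 and 36.2 FPKM in unstimulated to 72.4 and 87.8 in control cells (limma adjusted p = 0.0445). In SMF-treated against control cells *H2-Q6* and *Fcgrt* were called lower and *H2-M3*, whose product presents formylated peptides, higher at a log2 fold change of 2.14 (limma adjusted p = 0.223). With libraries shifted to one median or to one sum over protein-coding genes, 0 of the 10 were called higher in that comparison and 2 lower. *Fcgrt* was listed at 0 in both SMF libraries. The Qa region genes share long stretches with one another and with the heavy chains, so their levels are uncertain in the same way.

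Of 24 genes for class I transcription factors and interferon input, 3 were called higher and 3 lower in control against unstimulated cells, beside 12.3% and 12.6% of all genes. *Ifng*, the gene of interferon-gamma, went from 26.3 and 12.7 FPKM to 309.5 and 175 in control cells, and stood at 187 and 308 in SMF-treated cells. *Irf8* and *Nfkb1* were the other genes called higher. *Irf1*, an interferon-induced activator of class I genes, was called lower and went from 72.7 and 53.7 to 19.1 and 30.6 FPKM. *Ifngr2*, a chain of the interferon-gamma receptor, was called lower at -2.21 on the log2 scale, and so was the kinase gene *Jak1* at -1.50. In SMF-treated against control cells *Creb1*, *Irf9* and *Ifnar2* were called higher, at log2 fold changes of 1.19, 1.16 and 1.28 (limma adjusted p = 0.189, 0.226 and 0.205). Thus 3 of the 24 were called higher and 0 lower in that comparison, beside 12.5% and 5.72% of all genes. *Rfxank*, a subunit gene of the RFX complex that binds the X box, had the largest value of the list in that comparison, 1.72 (limma adjusted p = 0.468), and was not called. With libraries shifted to one median 0 of the 24 were called in that comparison.

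By the root mean square difference from the mean centred log2(FPKM + 1) profile of the 10 members over the 6 libraries, the protein-coding genes most like them among 6913 with a mean of at least 5 FPKM were *Rapgef1* (0.0663), *Eng* (0.117), *Uhrf1bp1l* (0.129), *Clint1* (0.133) and *Atxn2l* (0.138). The members themselves lay between 0.319 (*Psmb9*) and 0.685 (*Nlrc5*) from their own mean profile. The 5 genes were picked as the closest of 6913 and the members were not picked by distance, so these distances cannot be set against each other. The mean profile was at -0.03 and -0.21 in unstimulated, -0.12 and 0.016 in control, and -0.06 and 0.42 in SMF-treated cells, so SMF replicate 2 was its highest point.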

How the data were processed

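Total RNA libraries were made with a strand-keeping low-input kit, 1 file per library. Per the submitters' processing notes, reads were trimmed with Trimmomatic 0.36 and aligned with HISAT2, and StringTie (1.3.5 in the file headers) estimated annotated transcripts on GRCm38 with GENCODE M19. The deposited files give FPKM, TPM and mean coverage per transcript, as the authors' StringTie runs wrote them, without read counts, so counting intervals could not be given. A table of the whole series with 3 value columns that match no sample was not used. FPKM was summed here to genes, and depth is coverage times transcript length. Genes averaging 1 FPKM or more over the libraries were fitted on log2(FPKM + 1) with limma 3.58.1 in R 4.3.3 (group means over all 6 libraries, variance trend, 3 residual degrees of freedom), with Benjamini-Hochberg adjustment over all genes tested. Fold changes on this scale understate those of low genes. Calls use the thresholds in the study's methods (2-fold, unadjusted p up to 0.05). Python 3.11.15 with pandas 2.3.3, numpy 2.4.6 and matplotlib 3.10.9 did the rest, and the fit was tested on simulated data. There 36.2% of 2-fold changes, 96.9% of 8-fold changes and 3.93% of unchanged genes were called between SMF-treated and control cells. A true 2-fold change was thus often missed. Exon overlaps and coding sequences came from GENCODE M21 on GRCm38, promoters from RefSeq.

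The members and gene lists were chosen with earlier results of these data known. Genes named in the text are the members, and from the wider lists the counterparts and partners of members, the genes called between SMF-treated and control cells and those with the largest absolute change of a list, with the 5 genes closest in profile. Facing genes, single markers and other listed genes were chosen after their values were seen. The alternatives were other pseudocounts, filters, scalings, TPM, protein-coding transcripts, no variance trend, only the groups compared, a replicate block, the run as a term, and each library left out. Replicate numbers are shared between groups, but over 14991 genes the deviations of same-numbered libraries had correlations of 0.0963 (unstimulated and control), 0.0301 (unstimulated and SMF) and 0.0206 (control and SMF).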

Additional observations from a re-analysis of the deposited data

How the results depend on the processing

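For other settings than leaving out a library, 342 of the fold changes of members kept their direction and their side of the threshold, 20 reversed, 3 were newly called and 5 lost a call. Of the differences between groups in the *Psmb8* and *Psmb9* ratios, 3 moved by at least the pooled standard deviation of the groups on protein-coding transcripts, and 3 did not. In control against unstimulated cells 1 member was called higher, against 0 as reported, with protein-coding transcripts only (*Psmb8*), with the run as a term (*Tap1*), and with protein-coding transcripts set to one sum over protein-coding genes (*Psmb8*). The last setting was chosen after seeing the data and is called the combined setting here. In these 3 settings 1351 of 9559, 1949 of 14991 and 1149 of 9598 genes tested were called higher. In SMF-treated against control cells 0 members were called higher, against 1 as reported, with a pseudocount of 5, libraries shifted to one median, one sum over protein-coding genes, no variance trend, and the combined setting. In the same order 1396, 877, 931 and 1862 of 14991 genes were called higher, and 710 of 9598 in the combined setting. With a library left out, members called higher ranged from 0 to 1, 0 to 2 and 1 to 2 in control against unstimulated, SMF-treated against control and SMF-treated against unstimulated cells, and members called lower in SMF-treated against control cells from 0 to 1.

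Reversed log2 fold changes in control against unstimulated cells were *Tap2* at -0.064 (TPM) and -0.071 (one sum), *Tapbp* at -0.11 (combined) and *Nlrc5* at 0.041 (one median). In SMF-treated against control cells they were *Tap2* at -0.067 (one median), -0.043 (one sum) and -0.085 (combined), *Psmb9* at -0.033, -0.021 and -0.18 in the same order, *Tapbp* at 0.059 (protein-coding transcripts), and *Nlrc5* at 0.79 (protein-coding transcripts) and 0.38 (combined). In SMF-treated against unstimulated cells they were *B2m* at -0.090 (one sum) and -0.25 (combined), *Tap1* at -0.10 (combined), *Tap2* at -0.11 (one sum) and -0.061 (combined), and *Tapbp* at 0.15 and *Nlrc5* at 0.26 (protein-coding transcripts). With a library left out, the values that crossed 0 ranged from -0.76 to 0.13 for *B2m*, -0.16 to 0.30 for *Tap2*, -1.21 to 0.58 for *Psmb10* and -0.75 to 0.66 for *Nlrc5* in control against unstimulated cells. They ranged from -0.97 to 0.037 for *Tap1*, -1.17 to 0.032 for *Tapbp* and -0.22 to 0.83 for *Psmb9* in SMF-treated against control cells, and from -0.075 to 0.87 for *B2m* and -0.82 to 0.38 for *Tapbp* in SMF-treated against unstimulated cells. The cause of these changes was not tested.

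The replicate numbers are not stated to pair the libraries. With the replicate block the members called higher and lower stayed at 0 and 0, 1 and 0, and 1 and 0 in the 3 comparisons, and *Psmb8* in SMF-treated against control cells had a log2 fold change of 1.04. Of 14991 genes tested, 1817 and 1851, 1837 and 873, and 3359 and 2218 were called higher and lower with this block.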
